A study of Homo sapiens with 4 samples.

Results

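The nuclear genes for the subunits of respiratory complexes II, III and IV and of ATP synthase (complex V), with cytochrome c, were compared between human cells with a T4A and a wild-type (WT) RNA polymerase II. The members were chosen by gene symbol: SDHA, SDHB, SDHC, SDHD, CYC1, CYCS and the protein-coding genes whose symbols begin with UQCR, ATP5 or COX4 to COX8. This gave 52 of the 62700 genes counted, of which 46 were among the 18139 genes with enough counts to be tested. By complex they comprised 4 genes of complex II, 10 of complex III, 17 of complex IV and 19 of complex V, along with CYCS and the readthrough gene ATP5MF-PTCD1, which joins a complex V gene to its neighbor.

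The cells were HEK293T, a human embryonic kidney line, transfected with a construct for an α-amanitin-resistant form of RPB1, the largest polymerase subunit. The tail of RPB1, the C-terminal domain (CTD), is a chain of repeated heptads. The WT construct kept the natural CTD, and the T4A construct had alanine in place of threonine as the fourth residue of the heptads. All 4 libraries, 2 T4A and 2 WT, came from cells given α-amanitin, which removes the endogenous RPB1, at 2.5 µg/ml for 48 hours starting 1 day after transfection, so WT is not an untreated control and both groups carry the toxin and a transfected polymerase. Poly(A) RNA was sequenced to ask how Thr4 bears on the transcriptome.

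As background, complexes II, III and IV of the inner mitochondrial membrane pass electrons from succinate and ubiquinol through cytochrome c to oxygen, and complexes III and IV pump protons that complex V uses to make ATP. Complexes III, IV and V mix subunits encoded in the nucleus with a few encoded in mitochondrial DNA, whereas all subunits of complex II are nuclear. Large subunits generally carry the catalytic or core functions, and most of the small ones are accessory proteins that hold the complexes together or regulate them. Many of these genes are known targets of the transcription factors NRF1, GABP (an ETS factor also called NRF2) and YY1.

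Promoters of 35 of the 44 members with a mean of at least 1 CPM (counts per 1000000 counts, with TMM-scaled library sizes) were found in the RefSeq table of GRCh38.p14, as windows of equal length around the annotated start, and were searched on both strands for short strings. The ETS string CCGGAAG was in 16 of the 35 members (45.7%), against 20.6% of all tested genes with a promoter and 12.2% of all genes with one. GCGCATG, part of the NRF1 site, was in 9 members (25.7%), against 8.29% of tested genes, and the full palindrome, in which GCGCATG overlaps its reverse complement CATGCGC, was in 2 members (5.71%), against 2.54%. The YY1 string ATGGCGGC was in 3 members (8.57%), against 6.66%. A match describes the letters in the window and does not show that a factor binds there.

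Stretches ending at the base before the start are shown for 4 members that were called higher in T4A and hold the ETS string, and for both members with the NRF1 palindrome, SDHD and ATP5F1C, which had low fold changes. All are on the plus strand of GRCh38.p14, at chr5:132866562-132866641 for UQCRQ, chr2:97645982-97646061 for COX5B, chr19:35648243-35648322 for COX6B1, chr1:46303618-46303697 for UQCRH, chr11:112086753-112086872 for SDHD and chr10:7788097-7788176 for ATP5F1C. Capitals mark the ETS string or its reverse complement and the NRF1 palindrome.
UQCRQ: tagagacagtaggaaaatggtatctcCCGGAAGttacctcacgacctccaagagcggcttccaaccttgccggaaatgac
COX5B: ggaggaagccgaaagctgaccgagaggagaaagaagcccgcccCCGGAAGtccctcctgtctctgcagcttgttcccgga
COX6B1: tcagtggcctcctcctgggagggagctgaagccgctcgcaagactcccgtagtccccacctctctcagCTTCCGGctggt
UQCRH: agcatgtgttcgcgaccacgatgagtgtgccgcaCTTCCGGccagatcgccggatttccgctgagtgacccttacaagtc
SDHD: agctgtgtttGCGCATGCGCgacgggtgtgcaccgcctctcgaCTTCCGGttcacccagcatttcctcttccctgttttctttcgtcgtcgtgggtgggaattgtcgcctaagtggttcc
ATP5F1C: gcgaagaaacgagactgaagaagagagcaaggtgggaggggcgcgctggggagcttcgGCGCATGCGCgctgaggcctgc

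The SDHD stretch thus held both strings, and the ATP5F1C stretch held the palindrome close to the start. Among the members, the median log2 fold change was 0.47 for the 16 with the ETS string, 15 of them called higher, and 0.38 for the 19 without it, 17 of them called higher. Members with and without the string were thus called higher at like counts.

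Total counts were 19257217 to 23465029 in the T4A libraries and 24695291 to 33063535 in the WT libraries. The POLR2A counts, which hold the transfected and any endogenous RPB1 RNA together, gave 5378 and 5477 CPM in T4A and 3772 and 2764 CPM in WT, so the level of POLR2A RNA differed along with the sequence of the construct (log2 fold change 0.73 ± 0.08, adjusted p = 7.23e-07), and its part in the values below cannot be told apart from that of the mutation. Of 12 markers of HEK293 cells, 10 had a mean of at least 1 CPM, with LHX1 and EYA1 below it. Summed over each list, markers of striated muscle came to 9.74 to 11.1 CPM, of testis germ cells to 4.41 to 5.42 CPM and of blood, liver and vessel to 34.3 to 41.9 CPM, with TNNT2, HBB and 4 of the 8 testis markers at 0 in every library. Of all calls, 45.1% were higher in T4A, a share that was 61.0% with upper-quartile scaling and 31.2% with library totals. CPM is a share of a library, so more RNA of these genes and less of the other RNA per cell cannot be told apart.

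Nearly all of the expressed members were higher in T4A. Of the 46 tested, 40 were called higher at an adjusted p under 0.05 and 0 were called lower by edgeR's quasi-likelihood test, where 10.7% of all tested genes were called higher and 13.0% lower. At an unadjusted p under 0.05 the counts were again 40 and 0, as they were with DESeq2 and with limma-voom. Both T4A libraries lay above both WT libraries in 43 members, a pattern that 28.5% of all tested genes showed, and in the other 3 (SDHA, SDHD and ATP5MGL) the groups overlapped. The rises were modest: the median log2 fold change of T4A over WT was 0.41, beside -0.01 over all tested genes, and the called members ranged from 0.12 for ATP5F1B to 0.65 for ATP5ME. Summed over the members, the level was 18170 and 17767 CPM in the T4A libraries and 14210 and 14211 CPM in the WT libraries, a ratio of 1.26. The 6 members not called were 3 of the 4 complex II genes, the complex III core gene UQCRC2 and the scarcely counted COX6B2 and ATP5MGL.

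**Figure D1:**
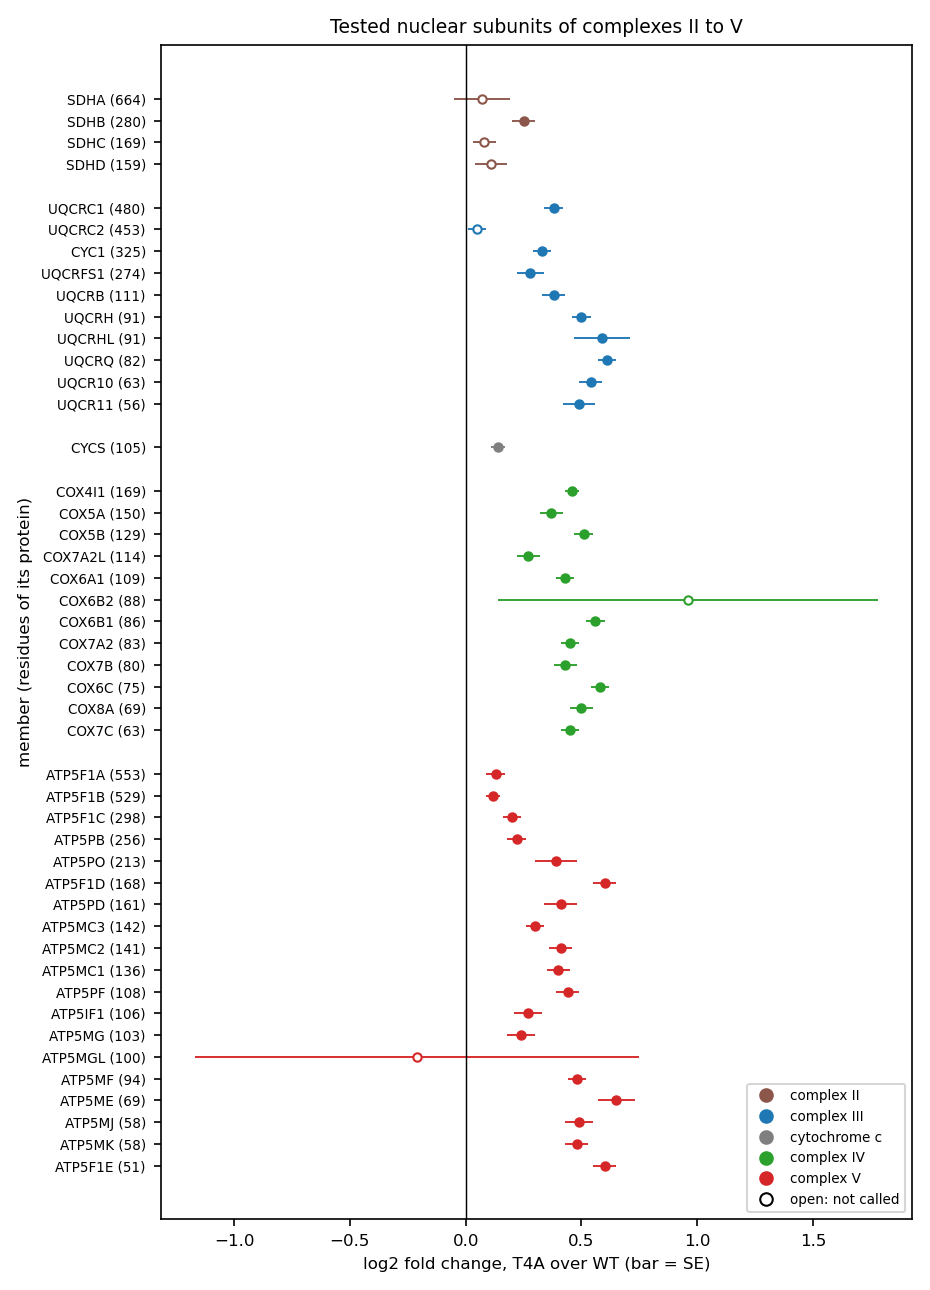
Log2 fold change of T4A over WT (x axis, bar = SE, 2 libraries per group) for the 46 tested members (y axis, with the residues of each protein), grouped by complex and ordered from long to short proteins. Filled points were called, and they lie to the right of 0, while SDHA, SDHC, SDHD and UQCRC2 sit near it and COX6B2 and ATP5MGL have wide errors.

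Complex II oxidizes succinate and is the one complex of the group whose subunits also serve the citric acid cycle. Its genes stayed closest to WT, with 1 of 4 called and a median log2 fold change of 0.09. SDHB, the iron-sulfur subunit, was at 231 and 234 CPM in T4A and 199 and 192 CPM in WT. Its T4A libraries were both the higher ones, and it rose by 0.25 ± 0.05 on the log2 scale (adjusted p = 4.73e-04), but it stood at 0.08 and was not called with the trend of fold change with exonic length over all genes removed. SDHC, a membrane anchor that helps bind ubiquinone, was at 268 and 258 CPM in T4A and 258 and 240.2 CPM in WT. The lower T4A library lay barely above the higher WT library, and SDHC had a log2 fold change of 0.08 ± 0.05 (adjusted p = 0.267). It was called with upper-quartile scaling (0.16, adjusted p = 0.0186), where 2 of the 4 genes were.

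SDHD, the other anchor, was at 86.3 and 95.6 CPM in T4A and 80.1 and 89.0 CPM in WT, so the groups overlapped, and its log2 fold change was 0.11 ± 0.07 (adjusted p = 0.333). SDHA, the flavoprotein that takes the electrons from succinate, overlapped as well, at 17.2 and 16.8 CPM in T4A and 15.5 and 16.9 CPM in WT (log2 fold change 0.07 ± 0.12, adjusted p = 0.742). Its level is uncertain, since it held just 316 to 521 counts per library and its annotated pseudogenes held 43.7% of the counts of gene and pseudogenes together. With those counts added to SDHA it was again not called. The signs of SDHC and SDHD depended on the exonic length trend, with log2 fold changes of -0.12 and -0.03 once it had been removed, and neither was called there.

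Complex III passes electrons from ubiquinol to cytochrome c. Its 10 genes had a median log2 fold change of 0.43, with 9 called higher and no overlap of the groups in any of the 10. The redox subunits rose moderately: CYC1, cytochrome c1, by 0.33 ± 0.04 and UQCRFS1, the Rieske iron-sulfur protein, by 0.28 ± 0.06. The core proteins parted. UQCRC1 was at 480.5 and 471 CPM in T4A and 372 and 362 CPM in WT, whereas its partner UQCRC2 was at 324 and 333 CPM in T4A and 315 and 319 CPM in WT. UQCRC1 rose clearly (0.38 ± 0.04, adjusted p = 5.59e-07), while UQCRC2 had both T4A libraries on top by a small margin and was not called (0.05 ± 0.04, adjusted p = 0.446), although it was with upper-quartile scaling (0.13, adjusted p = 0.0242). The difference between UQCRC1 and UQCRC2 was not tested.

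All 6 small subunits of complex III rose, by 0.38 to 0.61 with a median of 0.52. UQCRQ, a small membrane subunit, was at 589 and 564 CPM in T4A and 373 and 383 CPM in WT. The WT libraries were close to each other and far below the T4A ones, and UQCRQ had the smallest adjusted p of all members (0.61 ± 0.04, adjusted p = 1.25e-09). UQCRH, the hinge protein that lies next to cytochrome c1, was at 786 and 735 CPM in T4A and 523 and 553 CPM in WT (0.50 ± 0.04, adjusted p = 2.10e-08). UQCR10 was at 315 and 311 CPM in T4A and 208 and 223 CPM in WT (0.54 ± 0.05, adjusted p = 4.13e-08). Each of these genes had its groups apart by more than the gap between replicates. UQCRHL, a copy of UQCRH, rose by 0.59 ± 0.12, but at 14.1 to 24.4 CPM its counts may include fragments of UQCRH, and the split between these genes is uncertain.

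Cytochrome c, the mobile carrier between complexes III and IV that also takes part in apoptosis, was encoded by CYCS at 841 and 828 CPM in T4A and 755 and 758 CPM in WT. The replicates of each group nearly coincided and the T4A libraries were higher, with a log2 fold change of 0.14 ± 0.03 (adjusted p = 0.00367), a call lost with library totals (0.06). Among the small subunits called, CYCS had the lowest fold change. Its direction depended on the kind of length considered: it was 0.22 with the exonic length trend removed (adjusted p = 1.73e-04) and -0.13 with the coding length trend removed (adjusted p = 0.0111), where it was the only member called lower.

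Complex IV, cytochrome c oxidase, hands the electrons to oxygen. Its mitochondrially encoded subunits form the catalytic core, and the nuclear members surround it. Of 12 tested nuclear genes 11 were called higher, with a median log2 fold change of 0.46, and the groups overlapped in none of the 12. The 10 subunits used in all tissues rose together within a narrow band, from 0.37 ± 0.05 for COX5A to 0.58 ± 0.04 for COX6C. COX6B1, on the intermembrane face, was at 482 and 456 CPM in T4A and 323 and 315 CPM in WT (0.56 ± 0.04, adjusted p = 7.96e-09). COX4I1, the longest of the ubiquitous nuclear subunits, was at 1010 and 963 CPM in T4A and 718 and 714 CPM in WT (0.46 ± 0.03, adjusted p = 9.62e-09). COX6C was at 385 and 382 CPM in T4A and 248 and 266 CPM in WT (adjusted p = 1.11e-08). In all 3 the lower T4A library stood well above the higher WT library. COX7A2L, which helps join complexes III and IV into supercomplexes, rose least of the called genes here (0.27 ± 0.05, adjusted p = 4.91e-04), at 192 and 185 CPM in T4A and 158 and 155 CPM in WT.

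The isoforms of complex IV subunits that belong to muscle, lung or testis were almost uncounted. COX4I2 had no counts in any library, and COX6A2, COX7B2 and COX8C had at most 1 count per library, so COX4I2 at 0 allows up to 3 counts by counting error alone. COX7A1, the heart and muscle form, was counted 7 and 4 times in the T4A libraries and 4 times in each WT library. COX6B2, the testis form, was the only isoform with enough counts to be tested, with T4A counts of 14 and 11 and WT counts of 16 and 3, and its fold change of 0.96 ± 0.82 was not called (adjusted p = 0.464). The readthrough ATP5MF-PTCD1 had 1 count in all.

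**Figure D2:**
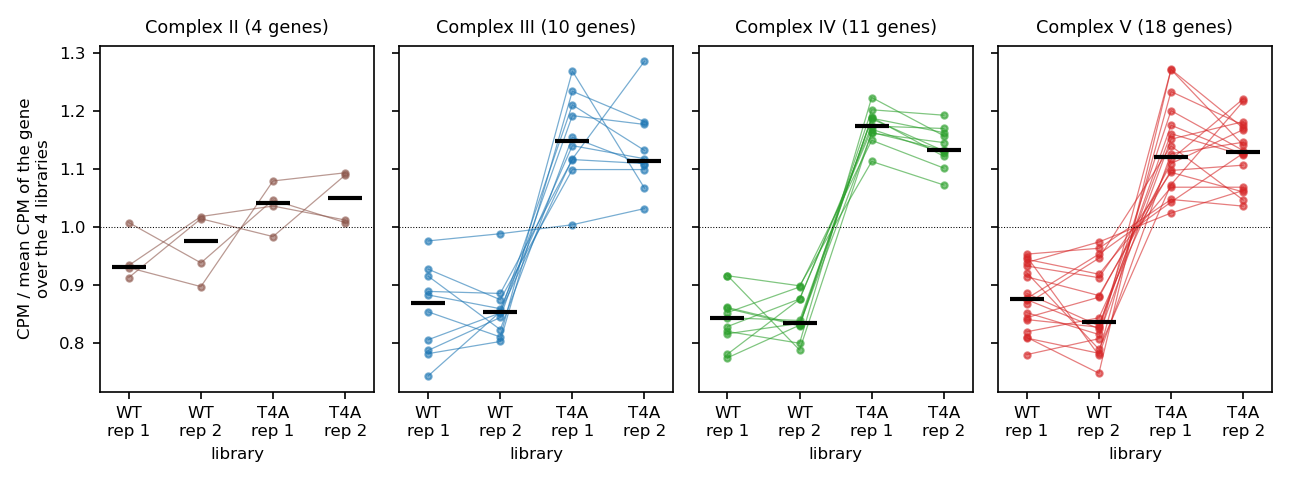
CPM of each member in each library, divided by the gene's mean over the 4 libraries (y axis), with a line per gene and a black bar at the median of each library (x axis), for members with a mean of at least 1 CPM. In complexes III, IV and V the T4A libraries lie above the WT libraries for every gene plotted, whereas in complex II the groups overlap for SDHA and SDHD.

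Complex V consists of the F1 head and stalk in the matrix, the c ring in the membrane, a peripheral stalk that joins them and small membrane subunits that help shape the cristae. Of its 19 genes 18 were called higher, with a median of 0.40. Among the F1 genes, those for the large subunits had the lower fold changes as measured, an order that did not hold for ATP5F1A once length trends were removed. The α subunit gene ATP5F1A was at 578 and 599.9 CPM in T4A and 529.8 and 549.8 CPM in WT (0.13 ± 0.04, adjusted p = 0.0189), and the gene of the catalytic β subunit, ATP5F1B, was at 3100 and 3066 CPM in T4A and 2821 and 2851 CPM in WT (0.12 ± 0.03, adjusted p = 0.00180). Both rises were small and depended on the setting. ATP5F1A was not called with library totals (0.05), without the filter on low counts (0.10), without T4A replicate 2 (0.10) or without WT replicate 1 (0.11), but with the exonic, canonical transcript and coding length trends removed it was called at 0.37, 0.38 and 0.21. ATP5F1B was not called with library totals (0.04) and turned sign, uncalled, with the exonic (-0.06) and canonical transcript (-0.04) trends removed. ATP5F1C, the γ subunit of the rotating stalk, rose by 0.20 ± 0.04, a call lost with the exonic (0.02) and canonical transcript (-0.04) trends removed.

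The small stalk subunits stood higher as measured. ATP5F1D, the δ subunit, was at 235 and 224 CPM in T4A and 154 and 149 CPM in WT (0.60 ± 0.05, adjusted p = 2.99e-08). ATP5F1E, the ε subunit and with 51 residues the shortest protein among the members, was at 556 and 499 CPM in T4A and 341 and 353 CPM in WT (0.60 ± 0.05, adjusted p = 1.15e-08). The differences between genes of the F1 sector were not tested, and with the exonic length trend removed ATP5F1D was at 0.41 beside 0.37 for ATP5F1A. ATP5IF1, the inhibitor that binds F1 when the membrane potential falls, rose by 0.27 ± 0.06 (adjusted p = 0.00231), but its value was 0.09 with the exonic length trend removed and was then not called.

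In the membrane sector, the c ring genes ATP5MC1, ATP5MC2 and ATP5MC3, which encode the same mature protein, rose by 0.40 ± 0.05, 0.41 ± 0.05 and 0.30 ± 0.04. The 4 peripheral stalk genes rose by 0.22 for ATP5PB to 0.44 for ATP5PF. ATP5PO, which ties the stalk to F1, was at 62.8 and 63.9 CPM in T4A and 52.9 and 43.4 CPM in WT, with the WT libraries well apart from each other, and its rise (0.39 ± 0.09, adjusted p = 0.00247) was not called without WT replicate 2 (0.26). Of the 6 small membrane subunits 5 rose. ATP5ME, subunit e, had the largest fold change of the called members at 84.2 and 77.5 CPM in T4A and 53.6 and 49.5 CPM in WT (0.65 ± 0.08, adjusted p = 2.33e-06), and ATP5MF, subunit f, was at 523 and 493 CPM in T4A and 366 and 360.3 CPM in WT (0.48 ± 0.04, adjusted p = 3.19e-08). ATP5MG, subunit g, rose by 0.24 ± 0.06 (adjusted p = 0.00417), a call lost without WT replicate 1 (0.19) and with library totals (0.16). Its scarcely counted relative ATP5MGL was counted 1 and 12 times in the T4A libraries and 10 and 12 times in the WT libraries, which gave no usable fold change (-0.21 ± 0.96, adjusted p = 0.919).

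Set side by side, the summed levels of complexes III and IV had the highest ratios of T4A to WT, complex V a lower one and complex II the lowest. The differences between complexes were not tested. The summed level was 602 and 604 CPM in T4A and 553 and 538 CPM in WT for complex II, a ratio of 1.11. It was 3461 and 3347 CPM against 2546 and 2555 CPM for complex III, a ratio of 1.33, and 5331 and 5148 CPM against 3785 and 3794 CPM for complex IV, a ratio of 1.38. Complex V came to 7935 and 7841 CPM against 6571 and 6566 CPM, a ratio of 1.20, with ATP5F1B alone at 2821 to 3100 CPM. In each complex both T4A sums exceeded both WT sums. With 2 libraries a group an exact permutation test cannot go below a chance of 33.3%, so these sums are descriptions.

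Levels were also compared between genes per kilobase of exonic length, over all 4 libraries. ATP5F1B was the highest at 1322 CPM per kilobase, followed by COX8A at 962, UQCRH at 484 and COX7C at 372. The order depended on the length used. Per kilobase of the canonical transcript ATP5F1B was at 1682, UQCRH at 1209, COX7C at 1163, COX4I1 at 1115, ATP5MF at 984 and COX8A at 962 CPM. Within complex II the exonic scale gave 87.5 CPM per kilobase for SDHB, 135 for SDHC and 31.5 for SDHD, while the value for SDHA, 1.91, is uncertain because of its pseudogenes. The fold change showed little relation to the level. Over the 44 members with at least 1 CPM Spearman's correlation of the log2 fold change with mean CPM was 0.07.

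Taken over all complexes, large subunits (at least 200 residues) rose less than small ones. The 11 large members had a median log2 fold change of 0.22, with 9 called higher, and the 35 small members tested had a median of 0.45, with 31 called higher, a difference of medians of 0.23. The same split gave 0.21 in complex III and 0.23 in complex V. Complex II, with 2 members on each side, had the other order. Its median was 0.16 for the large and 0.09 for the small members. With the exonic length trend removed these were 0.18 and -0.08. Complex IV has no large nuclear subunit. The tested members closest to the limit were ATP5PO with 213 residues (0.39) on the large side and COX4I1 and SDHC with 169 (0.46 and 0.08) on the small side. Summed levels gave a ratio of 1.12 for the large subunits, at 6010 and 5985 CPM in T4A and 5334 and 5338 CPM in WT. For the small ones the ratio was 1.35, at 12160 and 11782 CPM in T4A and 8876 and 8873 CPM in WT.

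Small size went with higher levels in T4A across the whole transcriptome, and not just among the members. Over all tested protein-coding genes, 35.0% of those with a protein under 200 residues were called higher and 4.92% lower (median log2 fold change 0.24), against 9.46% higher and 18.0% lower at 200 residues or more (median -0.07), a difference of medians of 0.31. The large members, 9 of 11 called higher, and the small members, 31 of 35, both exceeded the share of their own size class. The members were shorter than these classes, with median proteins of 325 against 521 residues for the large and 100 against 146 for the small. Neither length within a class nor depth was matched. Spearman's correlation of the log2 fold change with protein length was -0.72 over the 44 members with at least 1 CPM, -0.74 over 18 of complex V, -0.75 over the 10 of complex III and -0.38 over 13568 protein-coding genes. With other lengths the members and all protein-coding genes were closer. The correlation with exonic length was -0.46 over the 44 members and -0.43 over 13598 protein-coding genes. With canonical transcript length it was -0.55 over the 44 members and -0.53 over 13568 protein-coding genes. These correlations describe the same 4 libraries, and genes are not independent replicates.

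**Figure D3:**
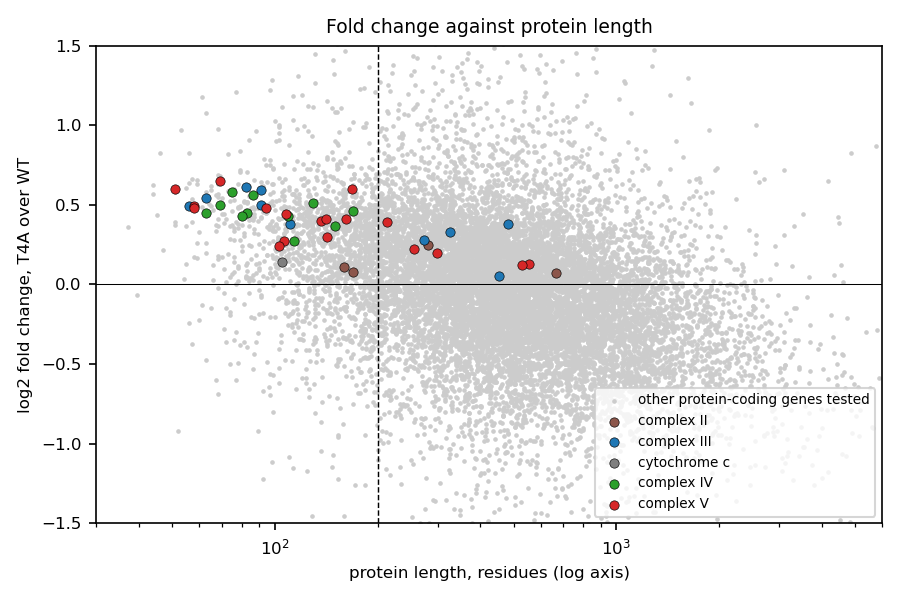
Log2 fold change of T4A over WT (y axis, cut at -1.5 and 1.5) against protein length in residues (x axis, log scale) for tested protein-coding genes (gray) and for the 44 members averaging 1 CPM or more (colored by complex). The dashed line marks 200 residues. The members tend to fall from the short end, where ATP5F1E stands at 0.60, to the long end. There ATP5F1B and ATP5F1A stand at 0.12 and 0.13, and SDHA, whose level is uncertain, at 0.07. Exceptions include UQCRC1 (480 residues) at 0.38 and SDHC and SDHD (169 and 159 residues) at 0.08 and 0.11.

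How much of the members' rise remained after such trends were removed depended on the length used. With the trend over exonic length removed, the member median was 0.28 and 35 members were called higher, and 0 lower, beside 9.85% and 7.84% of all tested genes. With the length of the canonical transcript it was 0.19 with 27 called higher, beside 7.15%, and with the coding length 0.18 with 28 called higher, beside 10.1%, and 1 (CYCS) called lower. Of the 40 members called higher, 17 were called under all 3 corrections, among them UQCRQ, UQCRH, UQCRC1, COX4I1, COX5B, COX6B1, COX6C, ATP5F1D, ATP5F1E, ATP5ME and ATP5MF, and ATP5IF1 was called under none. The gap between large and small subunits narrowed to 0.17 with exonic length and 0.12 with canonical transcript length. With coding length it was gone (-0.02), with the large subunits at 0.19 and the small at 0.17. Residues came from coding length, so this correction removed a trend in what defined the split and does not test the gap separately. Complex II stayed lowest throughout, at 0.02, -0.05 and 0.04, beside 0.29, 0.28 and 0.20 for complex III, 0.30, 0.21 and 0.17 for complex IV and 0.29, 0.16 and 0.18 for complex V.

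**Figure D4:**
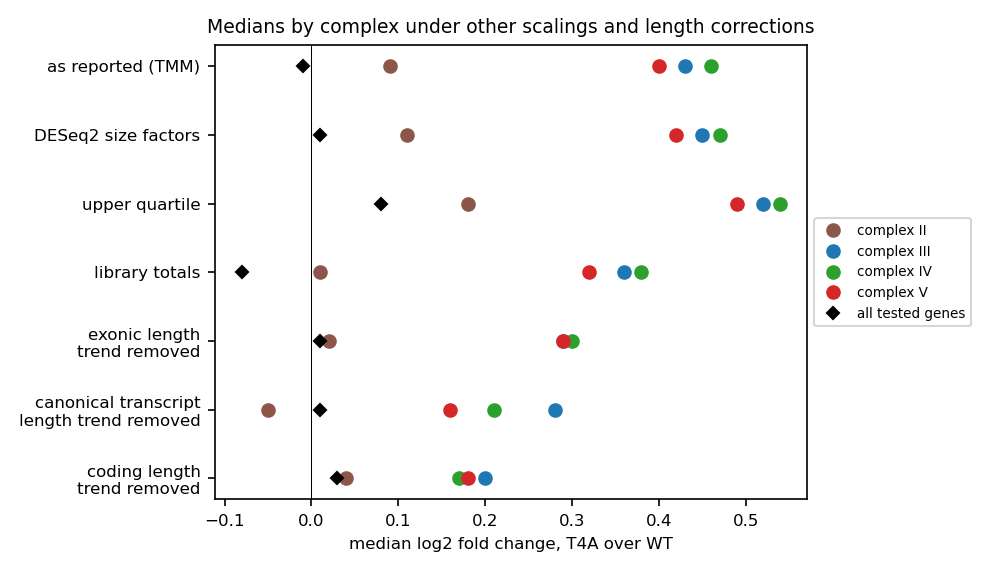
Median log2 fold change of T4A over WT (x axis) of complexes II to V and of all tested genes (diamonds) under the scalings and length corrections named on the y axis. Complex II is the leftmost of the 4 complexes in every line, and the medians of complexes III, IV and V move from 0.40 to 0.46 as reported to 0.17 to 0.20 with the coding length trend removed.

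Genes that build the complexes moved less uniformly than the subunits. Of 48 tested assembly factors of complexes II to V, 18 were called higher and 3 lower, beside 10.7% and 13.0% of all tested genes, with a median of 0.21. With the exonic length trend removed the counts were 8 higher and 1 lower. The median protein of these factors had 136 residues. Of all tested protein-coding genes with a protein under 200 residues, 35.0% were called higher and 4.92% lower, with a median of 0.24. The counts and median of the assembly factors were thus near those of their size class. The rises lay mostly among the 28 factors of complex IV, with 16 higher and 2 lower. PET100 was at 32.6 and 26.8 CPM in T4A and 16.7 and 17.1 CPM in WT (0.82 ± 0.11, adjusted p = 1.77e-05), and the copper chaperone COX17 was at 97.4 and 91.8 CPM in T4A and 61.6 and 65.3 CPM in WT (0.58 ± 0.07, adjusted p = 2.91e-06). COA3, which binds newly made COX1, rose as well (0.56 ± 0.09, adjusted p = 8.91e-05). LRPPRC, a large protein that stabilizes mitochondrial mRNAs, fell by 0.30 on the log2 scale (SE 0.05, adjusted p = 1.39e-04), but its value was 0.08 with the exonic length trend removed.

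For complex III, UQCC3 and UQCC4 rose (0.79 ± 0.24 and 0.53 ± 0.12) and LYRM7, which hands over the Rieske protein, fell (-0.32 ± 0.07, adjusted p = 0.00309), while the other 7 factors were not called. UQCC3 was not called without T4A replicate 2 (0.53) or WT replicate 2 (0.56), LYRM7 not without WT replicate 2 (-0.24) and UQCC4 not without WT replicate 1 (0.43). None of the 4 complex II factors and none of the 6 complex V factors was called by edgeR with TMM scaling, DESeq2 or limma-voom, with medians of 0.28 and 0.25, and in edgeR 1 of each set was higher at an unadjusted p under 0.05. With upper-quartile scaling SDHAF4 (0.44) and ATPAF2 (0.29) were called higher, and without T4A replicate 1 SDHAF2 (0.74), SDHAF4 (0.49), TMEM70 (0.64) and TMEM242 (0.49) were. For the complex II factors the values ranged from 0.19 for SDHAF3 to 0.49 for SDHAF2, and for ATPAF1 of complex V the value was -0.03.

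The mitochondrially encoded partners of these subunits had small changes in both directions. Of the 6 genes of complexes III to V, 2 were called higher and 4 lower, or 0 higher and 5 lower with the exonic length trend removed, with a median of -0.11, where the nuclear subunits of the same complexes had medians of 0.40 to 0.46. MT-CO2 and MT-CO3 rose by 0.11 ± 0.03 and 0.19 ± 0.02. MT-CYB, MT-CO1 and MT-ATP6 fell by 0.12, 0.11 and 0.16 on the log2 scale. With upper-quartile scaling these 3 were not called (-0.03, -0.02 and -0.08), nor was MT-CO1 with the DESeq2 test (adjusted p = 0.0534) or MT-CO2 with library totals (0.03). MT-ATP8 was at 281 and 285 CPM in T4A and 505 and 405 CPM in WT and fell by 0.69 (SE 0.07, adjusted p = 2.14e-07), but MT-ATP8 overlaps MT-ATP6, and the assignment of fragments between them is uncertain. Summed, the 6 genes were at 90611 and 89770 CPM in T4A and 95008 and 88163 CPM in WT, so the groups overlapped. The signs of MT-CO2 and MT-CO3 turned with the exonic length trend removed (-0.13 and -0.05).

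The nuclear subunits of complex I, the other entry point of the chain, were also mostly higher, with a median of 0.38. Of 35 tested genes 27 were called higher and 0 lower by edgeR, DESeq2 or limma-voom (1 lower at an unadjusted p under 0.05). Of all tested genes 10.7% were called higher and 13.0% lower. Of protein-coding genes with a protein under 200 residues the shares were 35.0% and 4.92%. With the exonic length trend removed 25 complex I genes were higher and 0 lower, beside 9.85% and 7.84% of all tested genes. NDUFA1 was at 459 and 451 CPM in T4A and 283 and 298 CPM in WT (0.65 ± 0.04, adjusted p = 1.25e-09), and NDUFA2 rose by 0.58 ± 0.04. Also listed were 16 transcription regulators of respiratory genes, among them the RNA polymerase and factors that act on mitochondrial DNA. None of the 16 was called higher by any of the 3 tools (2 at an unadjusted p under 0.05). In edgeR 6 were called lower, where 18.0% of all tested genes with a protein of at least 200 residues were lower. The median of the regulators was -0.25. With the exonic length trend removed 2 were lower (SP1 and GABPA) and 1 higher (GABPB2 at 0.34, named after its value was seen). SP1 was at 13.4 and 12.3 CPM in T4A and 22.8 and 23.3 CPM in WT (-0.84 ± 0.12, adjusted p = 2.21e-05). GABPA, the DNA-binding subunit of GABP, was at 18.2 and 18.9 CPM in T4A and 25.8 and 27.6 CPM in WT (-0.53 ± 0.11, adjusted p = 8.93e-04). MEF2A fell as well (-0.38 ± 0.09, adjusted p = 0.00425), a call lost without WT replicate 1 (-0.34) and with the exonic length trend removed (-0.23). The median of the regulators thus lay below 0 and that of the subunits above it. The regulators' median was -0.08, 0.05 and -0.25 with the exonic, canonical transcript and coding length trends removed.

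**Figure D5:**
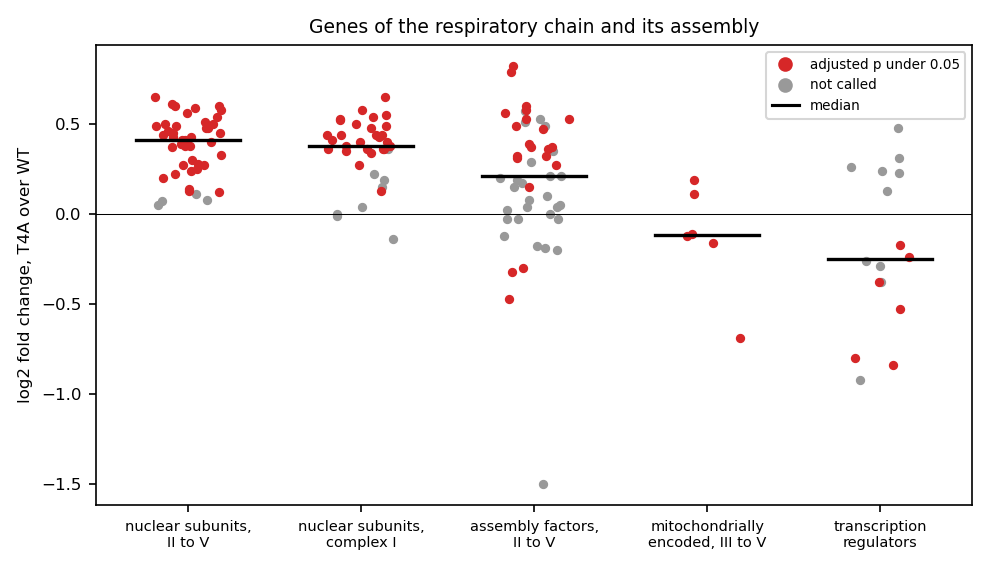
Log2 fold change of T4A over WT (y axis) for each tested gene of 5 lists (x axis, points spread sideways for legibility), in red where called at an adjusted p under 0.05, with the median as a bar. For the nuclear subunits of complexes II to V the 44 genes averaging 1 CPM or more are drawn. Both sets of nuclear subunits lie mostly above 0, the assembly factors spread to both sides, and the mitochondrially encoded genes and the regulators have medians of -0.11 and -0.25.

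Many members have processed pseudogenes, which can take or give fragments. The annotation held 176 pseudogenes named after 32 of the members, of which 107 had no count in any library and 12 could be tested. None of the 12 was called in either direction by edgeR, DESeq2 or limma-voom, with 1 higher at an unadjusted p under 0.05 and a median log2 fold change of 0.07. Pseudogene counts were a small share of the counts of gene and pseudogenes together for the members other than SDHA, at 2.54% for COX6A1, 2.14% for UQCRFS1, 1.57% for SDHD and under 1% for the rest, and adding them to the parent gene changed the call of no member.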

How the data were processed

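Poly(A) RNA of 4 HEK293T samples was sequenced from libraries made with a NEBNext Ultra RNA kit. The authors deposited unnormalized fragment counts by gene, 1 table per library. The submitters' processing notes name featureCounts 2.0.1, HISAT2 2.2.1 and Trimmomatic 0.38, with the build hg38. Alignment was unstranded, so fragments of genes that overlap on opposite strands may not be told apart. How such fragments, and those with several places, were treated is not given in the sources used. The study describes its replicates as biological, while the labels do not name the cultures, and the p-values rest on the spread between 2 libraries per group.

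Identifiers were named with GENCODE 44, which held 60877 of the 62700. It was lifted to GRCh37 and gave names, exonic length (union of exons), canonical transcript and coding length, and from the last the residues. Coordinates and promoters are those of RefSeq on GRCh38. Counts were kept with filterByExpr and compared in edgeR 4.0.16 (R 4.3.3) by its quasi-likelihood test (glmQLFit and glmQLFTest) after TMM scaling, with p-values of the 18139 genes adjusted by Benjamini-Hochberg. A call is an adjusted p under 0.05. CPM uses TMM-scaled library sizes, and fold changes carry standard errors derived from the F statistic. The common biological coefficient of variation was 0.114. Replicates differed by more than counting noise (chi-square over degrees of freedom 4.56 in T4A and 5.66 in WT). Length trends were removed with offsets from a loess fit per library (span 0.3) on log length. The procedure was also run on simulated counts with less spread between replicates than these libraries had. That run does not give error rates for these data, and none are reported here. Alternatives were DESeq2 1.42.0, limma-voom (limma 3.58.1), other scalings and filters, length corrections, a replicate block, pseudogene counts added to parents, other size splits and each library left out.

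The members, gene lists and motifs were chosen with earlier results of these data known, and medians over genes are descriptions without a test. The text names members with the smallest p-values, the extremes and the uncalled ones of each complex, all mitochondrially encoded subunits, and up to 4 assembly factors per complex and up to 3 complex I subunits and regulators with the smallest p.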

Additional observations from a re-analysis of the deposited data

How the results depend on the processing

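The 40 members called higher numbered 36 to 42 under other scalings, filters and tools and 38 to 40 without 1 library, and 0 were called lower in any of these. With the length corrections they were 35, 27 and 28, with 1 called lower (CYCS) under the coding length correction. The canonical transcript and coding length corrections were added after the data had been seen. The calls of all 46 tested members were the same with DESeq2 size factors, the DESeq2 test, limma-voom, added pseudogene counts and the replicate block. The deviations of same-numbered libraries from their group means correlated at -0.004, which gave no sign of a shift shared by same-numbered libraries. Whether such libraries were prepared together is not given in the labels. The replicate block gave 40 members higher, 2012 genes higher and 2432 lower, and a member median of 0.42.

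With upper-quartile scaling the medians were 0.50 for all members, 0.18 for complex II, 0.52 for complex III, 0.54 for complex IV, 0.49 for complex V, 0.31 for large and 0.54 for small subunits, 0.29 for assembly factors, -0.03 for mitochondrially encoded subunits, 0.47 for complex I and -0.17 for regulators. With library totals the same medians, in that order, were 0.34, 0.01, 0.36, 0.38, 0.32, 0.15, 0.38, 0.13, -0.19, 0.30 and -0.33, with SDHA at -0.01 and UQCRC2 at -0.03. Without the filter on low counts the median was 0.39 for all members and 0.20 for large subunits. The mean in place of the median was 0.35 for complex V, and small minus large was 0.11 with the split at the median exonic length.

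With the exonic length trend removed the medians were 0.28 for all members, 0.02, 0.29, 0.30 and 0.29 for complexes II to V, 0.13 for large and 0.30 for small subunits (difference 0.17), 0.14 for assembly factors, -0.33 for mitochondrially encoded subunits, 0.30 for complex I and -0.08 for regulators, and 1422 genes were lower. The canonical transcript correction gave 0.19, then -0.05, 0.28, 0.21 and 0.16, then 0.10 and 0.22 (difference 0.12), 0.10, -0.32, 0.19 and 0.05, with 1000 genes lower. The coding length correction gave 0.18, then 0.04, 0.20, 0.17 and 0.18, then 0.19 and 0.17 (difference -0.02), 0.03 for assembly factors and 0.20 for complex I, with 1566 genes lower. Signs turned with exonic length for ATP5F1B (-0.06), SDHC (-0.12), SDHD (-0.03), SDHAF3 (-0.04), SDHAF1 (-0.02), LRPPRC (0.08), MT-CO2 (-0.13) and MT-CO3 (-0.05). They turned with canonical transcript length for ATP5F1B (-0.04), ATP5F1C (-0.04), ATP5IF1 (-0.01), SDHC (-0.14), SDHD (-0.10), UQCRC2 (-0.09), SDHAF3 (-0.06), SDHAF1 (-0.03), LRPPRC (0.00), MT-CO2 (-0.16) and MT-CO3 (-0.08). With coding length they turned for ATP5MG (-0.03), CYCS (-0.13), SDHC (-0.11), SDHD (-0.09), SDHAF3 (-0.05), SDHAF1 (-0.05), LRPPRC (0.01) and MT-CO2 (-0.01). The cause of these shifts was not tested.

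Leaving out 1 library at a time, in which the lone library is assumed to vary like the other group, gave medians of 0.36 to 0.47 for all members, 0.09 to 0.15 for complex II, 0.36 to 0.47 for complex III, 0.43 to 0.49 for complex IV, 0.33 to 0.47 for complex V, 0.20 to 0.25 for large and 0.42 to 0.48 for small subunits, 0.18 to 0.29 for assembly factors, -0.16 to -0.06 for mitochondrially encoded subunits, 0.38 to 0.43 for complex I and -0.25 to -0.18 for regulators, with 1377 to 1975 genes higher and 1583 to 2545 lower. The median of complex II was 0.15 without WT replicate 2, and that of the mitochondrially encoded subunits -0.06 without WT replicate 1. ATP5MGL, with 1 to 12 counts per library, stood at -2.99 without T4A replicate 2 and turned to 0.74 without T4A replicate 1 and to 0.15 without WT replicate 2. Depth limits the scarcely counted isoforms and SDHA, and 2 libraries per group limit all tests.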
